A study of Homo sapiens with 38 samples.

Results

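Laminins are matrix proteins of the basement membrane, and integrins are the cell surface receptors that bind them and other matrix proteins. Their genes were taken by symbol, as every laminin chain (LAMA, LAMB and LAMC) and every integrin alpha and beta subunit (ITGA and ITGB) in the gene tables. The rule found 29 genes among the 15378 of the main experiment, made up of 10 laminin chains, 12 integrin alpha subunits and 7 integrin beta subunits. In the heterozygote experiment it found 25 among 14820 genes, without LAMB3, LAMB4, LAMC3 and ITGB2. All of them passed the filter on low values, a mean of at least 5 normalized counts over the experiment. Other genes of these families, such as LAMA2, ITGA8, ITGA10, ITGAL, ITGAM, ITGAX and ITGB6, were not analysed here.

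The cells were SH-SY5Y, a human neuroblastoma line that puts out neurites in retinoic acid, and their polyadenylated RNA was sequenced in 38 libraries. Neural cells had spent 10 days in 10 µM retinoic acid, and undifferentiated cells had none. The main experiment held 10 groups of 3 libraries. FT671, an inhibitor of the deubiquitinase USP7, and its vehicle DMSO were given to wild-type neural cells only, and the labels give neither its dose nor its duration. Cells without p53 and USP7 (p53;USP7 double knockout), without p53 and BCOR (p53;BCOR double knockout), without p53 alone, and wild type were each measured as neural and as undifferentiated cells. BCOR belongs to a noncanonical Polycomb repressive complex that also holds USP7. Both double knockouts were compared with the p53 knockout, so that all cells of those comparisons lacked p53. The heterozygote experiment held USP7-heterozygous and wild-type cells, neural and undifferentiated, as 4 groups of 2 libraries. The labels do not say how many clones stand for a genotype or whether the libraries of a group came from separate cultures, so p-values measure the spread between these libraries only.

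A laminin is a heterotrimer of an alpha, a beta and a gamma chain. Its alpha chain carries the main binding sites for integrins and dystroglycan, and the trimers assemble with collagen IV, nidogens and perlecan into basement membranes. An integrin is a heterodimer of an alpha and a beta subunit that ties this matrix to actin or, in the case of alpha6 beta4, to keratin filaments. Neurons extend neurites readily on laminin through beta1 integrins, and neuroblastoma cells use the same receptors to attach.

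Reads in genes ranged over the libraries from 16149022 to 17946790. Expression levels here are normalized counts, and changes are log2 differences ± SE from limma on log2(normalized count + 1), which understates changes of genes with few reads. A gene was called at a Benjamini-Hochberg adjusted p below 0.05, and means are given with SD over the 3 (heterozygote experiment, 2) libraries of a group. USP7 averaged 674 ± 32.0 normalized counts in p53;USP7 double-knockout neural cells, against 2912 ± 91.0 in p53-knockout neural cells, and 1834 ± 1.54 in heterozygous neural cells, against 2948 ± 42.9 in their wild type. BCOR averaged 776 ± 76.2 in p53;BCOR double-knockout neural cells, against 4255 ± 161 in p53-knockout neural cells, and 2464 ± 127 in p53;USP7 double-knockout neural cells. The lowest correlation between libraries of a group was 0.974 and belonged to the undifferentiated p53;USP7 double knockout, with 0.978 for the undifferentiated p53 knockout, and in both it was the third library that stood apart; these are the 2 outlying undifferentiated libraries. The summed level of 10 skeletal muscle markers, 8 of them measured, was 602 to 13272 over the 3 undifferentiated p53-knockout libraries, against 571 to 687 in undifferentiated wild-type cells. The 10 adrenergic neuroblast markers were all measured and summed to at least 23290.2 in every library of the main experiment. Of the 10 leukocyte markers 4 were measured, with sums of at most 1090, and of the 8 epithelial markers only EPCAM, at no more than 37.4. These are bulk libraries, in which fewer cells of a kind and less RNA per cell cannot be told apart.

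In wild-type cells the laminin transcripts were those of a few chains. Per kilobase of the longest coding transcript, LAMB1 stood at 1736 normalized counts in neural and 2902 in undifferentiated cells, and LAMC1, the common gamma chain, at 949.9 in neural and 1057 in undifferentiated cells. LAMB2, the other abundant beta chain, stood at 219.7 per kb in neural and 234 in undifferentiated cells. LAMA5, the alpha chain of most adult basement membranes, was the highest alpha chain per kb at 538 in neural and 310.4 in undifferentiated cells. LAMA4, the alpha chain of vessel, muscle and nerve laminins, came next among alpha chains in neural cells at 176 per kb, and stood at 6.86 in undifferentiated cells. LAMA1, the alpha chain of an early embryonic laminin, stood at 87.5 per kb in neural and 144 in undifferentiated cells. LAMA3 and LAMB3, chains of the laminin that lies under epithelial hemidesmosomes, were low per kb, LAMA3 at 9.43 in neural and 1.70 in undifferentiated cells, and LAMB3 at 0.223 in neural and 5.76 in undifferentiated cells.

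Among integrins, ITGB1, the partner of most matrix-binding alpha subunits, made up 82.2% of all beta subunit transcripts per kb in neural and 92.8% in undifferentiated wild-type cells. ITGB5, which pairs with alpha V on vitronectin, made up 15.1% in neural and 4.70% in undifferentiated cells. Of alpha subunits per kb, ITGAV, which binds the RGD motif of vitronectin and fibronectin, took the largest share in both states, 21.1% in neural and 32.9% in undifferentiated cells. ITGA6, a laminin-binding subunit, came next in neural cells at 16.2%, and took 4.83% in undifferentiated cells. ITGA1, a collagen and laminin receptor subunit, took 12.6% in neural and 20.5% in undifferentiated cells. The longest coding transcript need not be the one these cells express, so levels per kb are approximate.

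With differentiation of wild-type cells LAMA4 had the largest rise, and ITGA5, the alpha subunit of the main fibronectin receptor, had the largest fall among the genes given a fold change. Of 29 genes 7 rose and 15 fell, against 32.4% higher and 33.4% lower among all genes, and the median change was -0.45, against -0.01 over all genes. LAMA4 had 1135, 1114 and 1214 normalized counts in the neural libraries, against 52.7, 39.1 and 43.1 in undifferentiated ones (log2 4.66 ± 0.14, adjusted p = 5.7e-21). LAMA3 had 96.2, 113 and 92.8 in neural libraries, against 19.2, 15.0 and 20.0 in undifferentiated ones (log2 2.42 ± 0.25, adjusted p = 2.0e-09). LAMA5 rose as well (log2 0.80 ± 0.10), while LAMA1 fell (log2 -0.73 ± 0.10), and neither group overlapped the other for any of these 4 alpha chains. LAMB1 fell (log2 -0.74 ± 0.08), the low chains LAMB4 and LAMC3 fell, and LAMC1 and LAMB2 were not called at log2 -0.15 ± 0.08 and -0.09 ± 0.09. LAMB3 had 1.92, 0.963 and 0 normalized counts in wild-type neural libraries, at most 3 reads in all, against 26.3, 27.0 and 21.0 in undifferentiated ones, and no fold change is given for it.

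Among integrins of wild-type cells ITGA6 and ITGA7, both laminin-binding alpha subunits, rose (log2 1.05 ± 0.08 and 0.78 ± 0.10), and ITGA3, the third of that kind, was not called at log2 0.07 ± 0.10. All 3 measured collagen-binding subunits fell, ITGA1 by a log2 change of -1.40 ± 0.07, ITGA2 of -1.18 ± 0.09 and ITGA11 of -2.02 ± 0.31. ITGA5 had 8.65, 6.74 and 1.91 normalized counts in neural libraries, against 134, 113 and 132 in undifferentiated ones (log2 -4.40 ± 0.25, adjusted p = 8.0e-15). ITGA4, which binds fibronectin and VCAM1, had 59.6, 77.0 and 96.7 in neural libraries, against 306, 325 and 369 in undifferentiated ones (log2 -2.11 ± 0.11, adjusted p = 2.0e-15). Neural and undifferentiated libraries lay far apart for both genes. Of the beta subunits, ITGB5 and ITGB8, partners of alpha V, rose (log2 1.39 ± 0.08 and 1.64 ± 0.12), while ITGB1, ITGB3 and ITGB4 fell (log2 -0.45 ± 0.08, -1.74 ± 0.18 and -0.82 ± 0.21). Of the exon bases of ITGB3, 51.6% in GENCODE release 29 are shared with an overlapping transcript unit on the same strand, and 42.1% of those of ITGB7 with ZNF740 on the other strand. Whether counting used strand is not given in the sources used here, so reads of these 2 genes are uncertain, and so, to a lesser degree, are those of LAMA1, where 10.3% of exon bases lie opposite an antisense transcript, and ITGA9, where 6.46% overlap ITGA9-AS1.

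**Figure D1:**
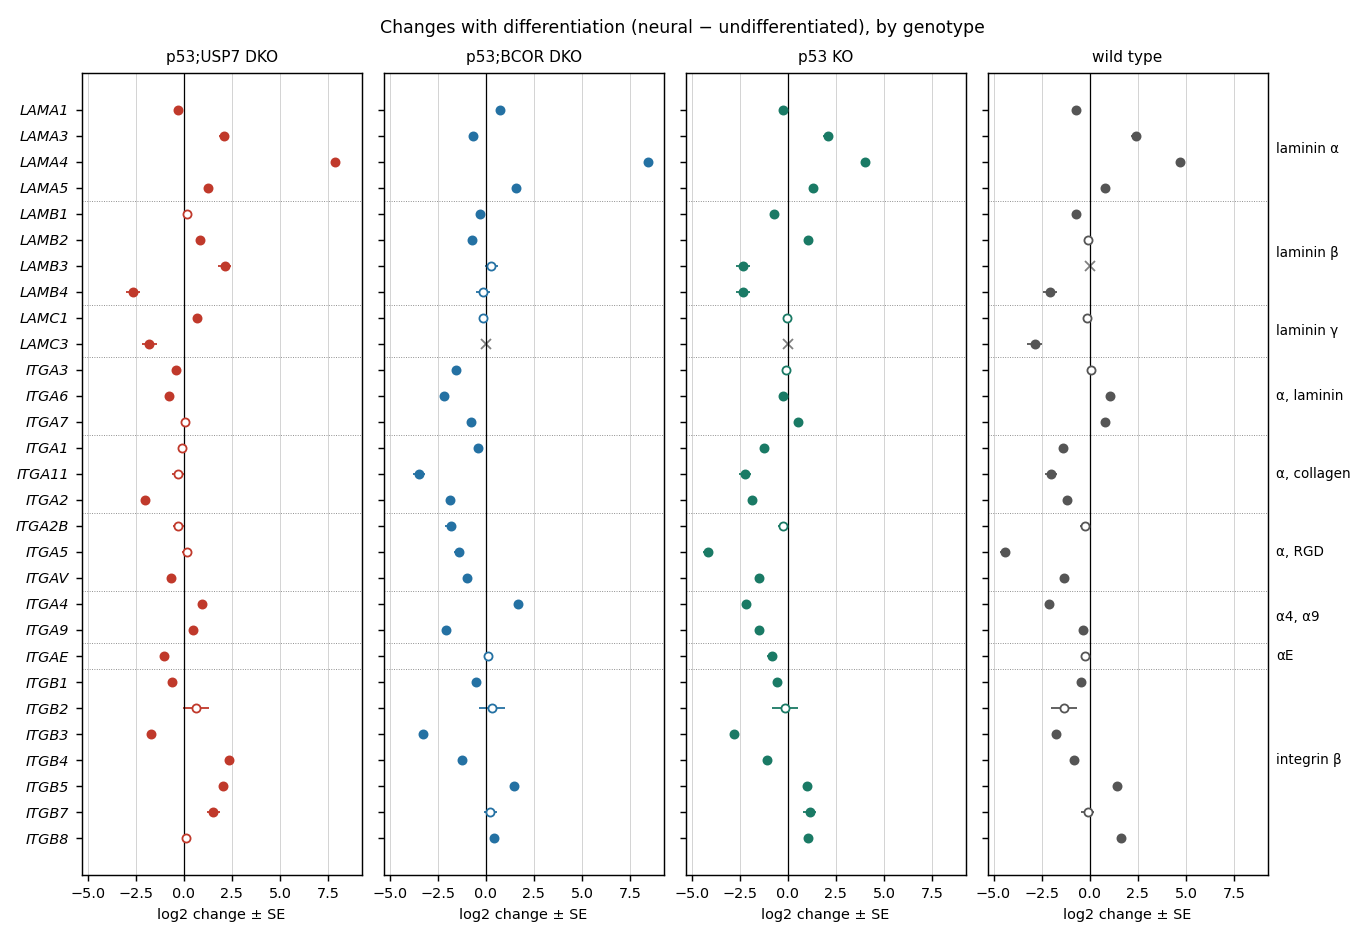
Log2 change ± SE (neural minus undifferentiated, x axis) of the 29 genes (y axis, by role) in 4 genotypes, 1 panel each. Filled points were called at an adjusted p below 0.05, open points were not, and a cross marks a gene with at most 3 reads in a group; LAMA4 lies far right in all 4 panels, and ITGA5 lies far left in wild-type and p53-knockout cells only.

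Differentiation was measured in 4 genotypes. In p53;USP7 double-knockout cells 11 of 29 genes rose and 10 fell with it (33.9% of all genes higher and 31.6% lower), with a median of 0.11. In p53;BCOR double-knockout cells 6 rose and 17 fell (27.0% and 30.1%), with a median of -0.53, and in p53-knockout cells 8 rose and 17 fell (35.6% and 33.5%), with a median of -0.55. ITGB5, LAMA4 and LAMA5 rose in all 4 genotypes, and ITGA2, ITGAV, ITGB1, ITGB3 and LAMC3 fell in all 4. Of these, LAMC3 had at most 3 reads in the neural libraries of p53-knockout cells and of p53;BCOR double-knockout cells. Without the 2 outlying undifferentiated libraries the counts were 11 up and 10 down in p53;USP7 double-knockout cells and 8 up and 18 down in p53-knockout cells.

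ITGA4, ITGA9, ITGB4 and LAMB3 rose with differentiation in p53;USP7 double-knockout cells and fell in wild-type cells. ITGB4, which pairs with alpha6 in the hemidesmosomal laminin receptor, had 564, 614 and 592 normalized counts in p53;USP7 double-knockout neural libraries, against 132, 113 and 97.6 in undifferentiated ones (log2 2.37 ± 0.21, adjusted p = 1.2e-10). ITGA4 had 1935, 1734 and 1792 in neural libraries of that genotype, against 966, 915 and 931 in undifferentiated ones (log2 0.96 ± 0.11, adjusted p = 3.2e-08). LAMB3 had 422, 368 and 425 in its neural libraries, against 97.5, 117 and 68.3 in undifferentiated ones (log2 2.12 ± 0.34, adjusted p = 4.5e-06). The neural libraries were the higher ones for each of these genes. ITGA5 was not called in p53;USP7 double-knockout cells, although it fell in wild-type cells, with 110.0, 111 and 102 in neural and 97.5, 105 and 89.0 in undifferentiated double-knockout libraries (log2 0.15 ± 0.25, adjusted p = 0.62). ITGA1, ITGA11 and LAMB1 were likewise not called in p53;USP7 double-knockout cells and fell in wild-type cells. The difference between the response of p53;USP7 double-knockout and that of p53-knockout cells was tested as an interaction. It was positive for 13 of 29 genes and negative for 3 (20.9% of all genes higher and 21.2% lower), with a median of 0.72, against -0.02 over all genes. It was largest for LAMB3 (log2 4.45 ± 0.48), ITGA5 (4.27 ± 0.36), LAMA4 (3.84 ± 0.20), ITGB4 (3.46 ± 0.30) and ITGA4 (3.12 ± 0.16). Without the 2 outlying undifferentiated libraries 13 were positive and 5 negative.

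In p53;BCOR double-knockout cells, the interaction was positive for 11 genes and negative for 9 (29.3% of all genes higher and 34.4% lower), with a median of 0.02. LAMA4 had 2697, 2845 and 2593 in neural libraries of this genotype, against 7.31, 5.21 and 8.36 in undifferentiated ones (log2 8.43 ± 0.14, adjusted p = 2.2e-26). ITGA4 rose here as well (log2 1.67 ± 0.11), whereas ITGA9, its closest relative and a tenascin and osteopontin receptor subunit, fell (log2 -2.06 ± 0.08). All 3 laminin-binding alpha subunits fell, with ITGA3 at -1.54 ± 0.10, ITGA6 at -2.17 ± 0.08 and ITGA7 at -0.77 ± 0.10.

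Loss of p53 alone changed ITGA7, LAMA5 and LAMA1 among others. In neural cells 8 of 29 rose and 6 fell (17.8% of all genes higher and 12.0% lower), and in undifferentiated cells 10 rose and 3 fell (12.2% and 10.1%), or 13 and 3 without the 2 outlying undifferentiated libraries. ITGA7 rose in both states, with 716, 680.3 and 681 normalized counts in p53-knockout neural libraries, against 363, 354 and 374 in wild-type neural ones (log2 0.93 ± 0.10, adjusted p = 2.1e-08), and 506, 499 and 443 in undifferentiated p53-knockout libraries, against 235, 200.3 and 199 in wild-type ones (log2 1.19 ± 0.10, adjusted p = 1.9e-10). LAMA5 had 12957, 12164 and 11467 in p53-knockout neural libraries, against 5993, 6387 and 6075 in wild-type neural ones (log2 0.99 ± 0.10, adjusted p = 6.2e-09). LAMA1 fell, with 512, 488 and 496 in p53-knockout neural libraries, against 753, 849 and 934 in wild-type neural ones (log2 -0.75 ± 0.10, adjusted p = 1.5e-06). The groups did not overlap for any of these 3 genes. ITGA4 and ITGB4, which move strongly in the double knockouts, were not called for p53 loss in neural cells (log2 -0.01 ± 0.11 and 0.06 ± 0.21), and neither was ITGA5 (0.11 ± 0.25). The test of whether p53 loss changed the response to differentiation was positive for 4 of 29 genes and negative for 7 (10.2% of all genes higher and 7.87% lower).

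Loss of USP7 in neural p53-knockout cells raised most of the family. Of 29 genes 21 rose and 2 fell, against 30.7% higher and 33.0% lower among all genes, and the median change was 1.20, against -0.01 over all genes. A change of at least 1 on the log2 scale was reached upward by 17 of the 29 genes and by 12.0% of all genes, and downward by 1 and by 10.1%. Laminin chains, 8 up and 1 down of 10, and integrins, 13 up and 1 down of 19, both took part. These counts stayed between 22 and 25 called genes when any single library was left out.

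Of the laminin alpha chains LAMA4 had 4947, 4857 and 5136 normalized counts in p53;USP7 double-knockout neural libraries, against 798, 947 and 829 in p53-knockout neural ones (log2 2.54 ± 0.14, adjusted p = 4.7e-15). LAMA1 had 2300.2, 2267 and 2311 in p53;USP7 double-knockout neural libraries, against 512, 488 and 496 in p53-knockout neural ones (log2 2.20 ± 0.10, adjusted p = 6.4e-17). LAMA5, already the highest alpha chain, rose less (log2 0.42 ± 0.10), and LAMA3 was not called at -0.22 ± 0.25. The alpha chains thus changed unequally: per kb, LAMA4 stood at 761 and LAMA5 at 1422 in p53;USP7 double-knockout neural cells, against 131 and 1067 in p53-knockout neural cells. LAMB3 had 422, 368 and 425 normalized counts in p53;USP7 double-knockout neural libraries, against 11.8, 7.79 and 3.90 in p53-knockout neural ones (log2 5.63 ± 0.34, adjusted p = 2.5e-14). The abundant chains LAMB1 and LAMC1 rose (log2 1.20 ± 0.08 and 1.06 ± 0.08), and so did LAMB2 (0.81 ± 0.09). LAMC3 had 13.5, 21.5 and 21.9 in p53;USP7 double-knockout neural libraries, against 1.97, 0 and 0 in p53-knockout neural ones, where the second and the third library had no read, and no fold change is given. LAMB4 fell between low levels, with 0.965, 2.93 and 2.99 in p53;USP7 double-knockout neural libraries, against 7.87, 7.79 and 2.93 in p53-knockout neural ones (log2 -1.10 ± 0.37, adjusted p = 0.011), and its groups overlapped.

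Of the integrins ITGA4 had 1935, 1734 and 1792 normalized counts in p53;USP7 double-knockout neural libraries, against 79.6, 80.8 and 67.3 in p53-knockout neural ones (log2 4.57 ± 0.11, adjusted p = 4.2e-23). ITGB4 had 564, 614 and 592 in p53;USP7 double-knockout neural libraries, against 27.5, 17.5 and 19.5 in p53-knockout neural ones (log2 4.74 ± 0.21, adjusted p = 2.1e-17). ITGA5 had 110.0, 111 and 102 in p53;USP7 double-knockout neural libraries, against 4.92, 4.87 and 6.83 in p53-knockout neural ones (log2 4.07 ± 0.25, adjusted p = 4.2e-14). Every library of the double knockout lay above every library of the p53 knockout for all 3 genes. The collagen-binding subunits rose together, ITGA1 by 2.23 ± 0.07, ITGA2 by 1.57 ± 0.09 and ITGA11 by 1.84 ± 0.31 on the log2 scale. The laminin-binding subunits parted: ITGA3 (1.61 ± 0.10) and ITGA6 (1.08 ± 0.08) rose, and ITGA7 fell, with 389, 425 and 425 in p53;USP7 double-knockout neural libraries, against 716, 680.3 and 681 in p53-knockout neural ones (log2 -0.74 ± 0.10, adjusted p = 1.5e-07). ITGB1, the common beta subunit, rose by 0.47 ± 0.08, ITGB5 by 0.95 ± 0.08 and ITGB3, the vitronectin receptor beta subunit, by 1.55 ± 0.18. ITGAE, ITGA2B, ITGB2, ITGB7 and ITGB8 were not called, at log2 -0.22 ± 0.23, -0.60 ± 0.28, -0.52 ± 0.68, 0.11 ± 0.33 and 0.14 ± 0.12. Of these, ITGB8 is an alpha V partner that activates latent TGF-beta.

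**Figure D2:**
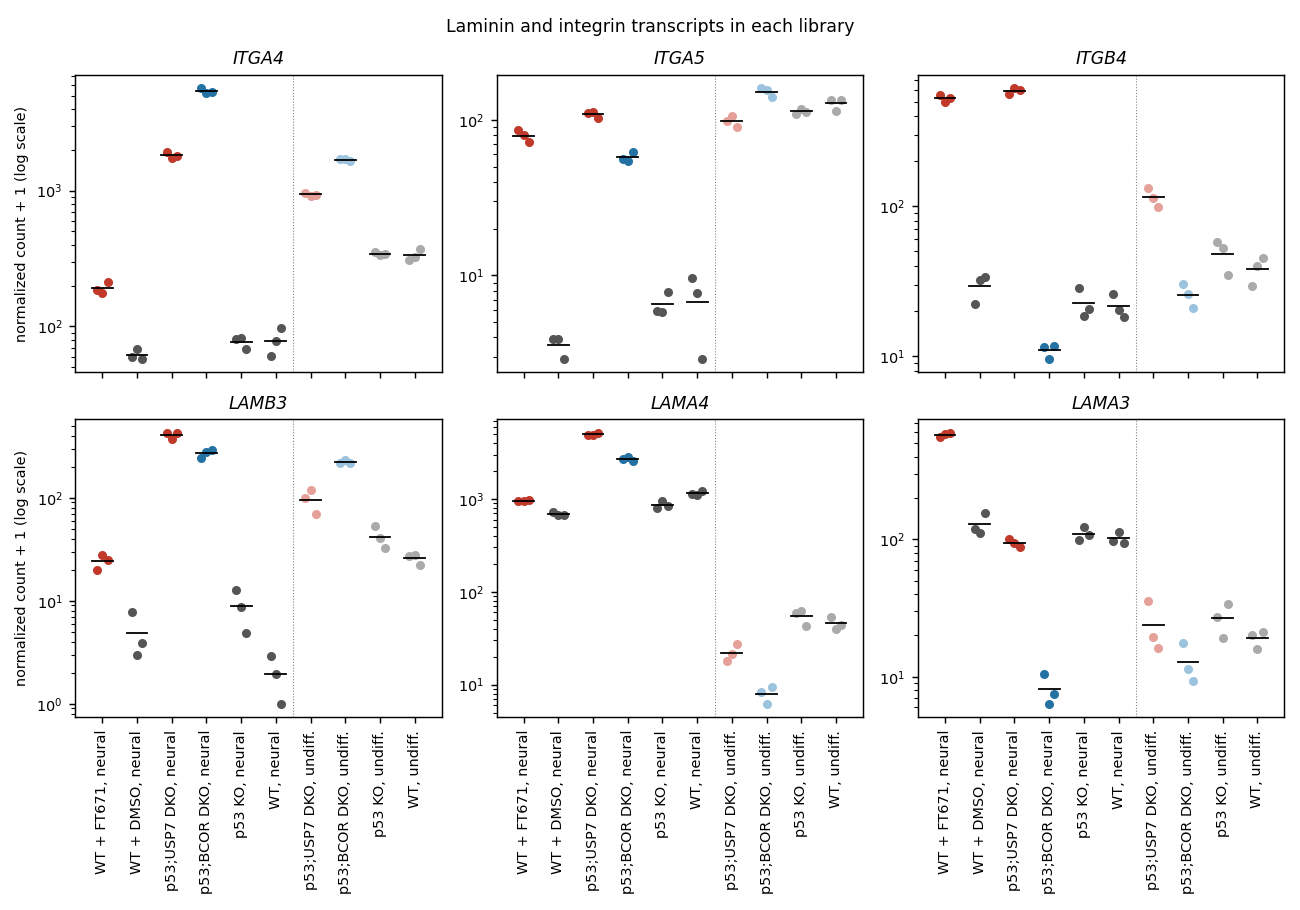
Normalized count + 1 (log scale, y axis) of 6 genes in every library of the main experiment (x axis, neural groups left of the dotted line, undifferentiated groups right of it), with points for libraries and bars for group means. The FT671 and p53;USP7 double-knockout neural libraries (dark red) lie above the DMSO and p53-knockout neural ones for ITGA4, ITGA5, ITGB4 and LAMB3, and the p53;BCOR double-knockout neural libraries (dark blue) are highest for ITGA4 and lowest for ITGB4 and LAMA3.

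Markers of a mesenchymal state moved with these changes. The 10 mesenchymal markers, all measured, summed to 71607 to 74949.5 in p53;USP7 double-knockout neural libraries, against 15175 to 15852 in p53-knockout neural ones, and the 10 adrenergic neuroblast markers to 23290.2 to 26399.5 in p53;USP7 double-knockout neural libraries, against 115402 to 122885 in p53-knockout neural ones. In undifferentiated cells the mesenchymal markers summed to 84022 to 95862 with p53;USP7 double knockout and 92723 to 94497 with p53;BCOR double knockout, against 45757 to 55008 with p53 knockout, and in wild-type cells to 14484 to 15264 when neural, against 56283 to 58801 when undifferentiated. The mesenchymal list holds FN1 and SPARC, which are also in the lists of integrin ligands and basement membrane partners. The 5 measured of 7 endothelial markers summed to 352 to 381 in p53;USP7 double-knockout neural libraries, against 77.7 to 101 in p53-knockout neural ones. That sum was mostly KDR, which averaged 296 in p53;USP7 double-knockout neural cells, against 1.30 in p53-knockout neural cells, and of the 5 markers 1 rose and 2 fell (median -0.40). Of the 10 mesenchymal markers 9 rose and 0 fell, and of the 10 adrenergic neuroblast markers 1 rose and 7 fell. What these markers contribute to the laminin and integrin changes was not tested.

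Promoters are shown for LAMB3, ITGA4, ITGA5 and LAMA4, the genes with the largest called rise in this comparison among those with a RefSeq promoter entry. They run from 250 bases before to 50 after the start of transcription, 5′ to 3′ on the strand of the gene, in GRCh38.p14, with every CG dinucleotide in capitals.
LAMB3 (chr1:209652376-209652675, minus strand): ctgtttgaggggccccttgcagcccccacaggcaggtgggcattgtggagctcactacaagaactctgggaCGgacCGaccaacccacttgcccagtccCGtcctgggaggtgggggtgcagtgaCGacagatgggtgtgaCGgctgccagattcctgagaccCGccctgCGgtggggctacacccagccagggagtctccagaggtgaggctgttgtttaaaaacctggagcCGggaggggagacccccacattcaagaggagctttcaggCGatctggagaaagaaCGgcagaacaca
ITGA4 (chr2:181457136-181457435, plus strand): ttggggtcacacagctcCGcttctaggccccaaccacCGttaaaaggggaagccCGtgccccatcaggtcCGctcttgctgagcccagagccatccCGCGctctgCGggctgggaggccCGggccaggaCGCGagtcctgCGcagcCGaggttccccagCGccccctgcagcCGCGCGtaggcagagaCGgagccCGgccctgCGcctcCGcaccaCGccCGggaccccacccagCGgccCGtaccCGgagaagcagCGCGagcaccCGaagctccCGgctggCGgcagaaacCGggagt
ITGA5 (chr12:54419217-54419516, minus strand): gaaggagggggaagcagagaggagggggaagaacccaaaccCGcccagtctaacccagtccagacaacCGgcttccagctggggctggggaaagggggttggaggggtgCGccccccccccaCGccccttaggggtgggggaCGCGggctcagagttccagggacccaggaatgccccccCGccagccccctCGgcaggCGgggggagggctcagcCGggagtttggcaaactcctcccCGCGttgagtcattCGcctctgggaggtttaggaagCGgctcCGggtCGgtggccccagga
LAMA4 (chr6:112254518-112254817, minus strand): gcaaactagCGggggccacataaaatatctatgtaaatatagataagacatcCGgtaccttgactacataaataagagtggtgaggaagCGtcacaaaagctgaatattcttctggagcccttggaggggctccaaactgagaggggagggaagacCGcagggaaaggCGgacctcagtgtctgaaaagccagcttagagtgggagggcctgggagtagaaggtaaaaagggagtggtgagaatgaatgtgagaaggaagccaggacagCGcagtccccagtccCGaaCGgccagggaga
The ITGA4 window holds 31 CG dinucleotides, that of ITGA5 16, that of LAMB3 10 and that of LAMA4 8, and the median over the 21 of 29 genes with an entry was 16 (quartiles 10 and 29), against 14 (quartiles 4 and 28) over 35116 promoters. Genes that rose together thus lay above the upper quartile of the 21 genes, as ITGA4 did, and below the lower one, as LAMA4 did. Of all promoters, 79.3% held fewer CG dinucleotides than that of ITGA4 and 39.3% fewer than that of LAMA4. The GC box GGGCGG, searched on both strands, occurred in 12 of the 21, against 45.0% of all promoters, among them LAMB3 and ITGA5. The AP-1 motif TGANTCA, which reads alike on both strands, occurred in 2 of the 21, ITGA5 and LAMA3, against 7.71% of all promoters. The retinoic acid receptor half-site AGGTCA, on either strand, occurred in none of the 21, against 13.8% of all promoters. These are matches of letters in a short window and say nothing of binding.

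In undifferentiated cells USP7 loss raised 16 of 29 genes and lowered 3, against 28.9% higher and 28.4% lower among all genes, with a median of 0.38, against 0.02 over all genes. Without the 2 outlying undifferentiated libraries 17 rose and 1 fell. LAMA1 had 3218, 3098 and 2241 normalized counts in undifferentiated p53;USP7 double-knockout libraries, against 635, 620.1 and 512 in undifferentiated p53-knockout ones (log2 2.26 ± 0.10, adjusted p = 1.1e-16). ITGA3 had 2870.4, 2411 and 1755 in undifferentiated p53;USP7 double-knockout libraries, against 639.9, 612 and 517 in undifferentiated p53-knockout ones (log2 1.97 ± 0.10, adjusted p = 3.3e-15). ITGA2 had 4003, 4179 and 3805 in undifferentiated p53;USP7 double-knockout libraries, against 1231, 1223 and 1161 in undifferentiated p53-knockout ones (log2 1.73 ± 0.09, adjusted p = 4.8e-15). No library of either group reached into the other for these genes, although the third double-knockout library was the lowest for each. ITGA6 rose (log2 1.63 ± 0.08), and ITGA4, ITGB4 and LAMB3, which rose most in neural cells, rose less here (1.45 ± 0.11, 1.27 ± 0.21 and 1.18 ± 0.34). LAMA4 fell, with 16.7, 20.5 and 26.0 in undifferentiated p53;USP7 double-knockout libraries, against 57.7, 61.5 and 41.4 in undifferentiated p53-knockout ones (log2 -1.31 ± 0.14, adjusted p = 1.0e-08). ITGA5 was not called at log2 -0.21 ± 0.25. ITGAE, the E-cadherin receptor subunit, was high in the third library of both groups, with 271, 279 and 618 in undifferentiated p53;USP7 double-knockout libraries and 305, 290.4 and 566 in undifferentiated p53-knockout ones. With USP7 loss in undifferentiated cells 10 mesenchymal markers counted 6 up and 1 down, 10 adrenergic neuroblast markers 0 up and 8 down, and 8 measured skeletal muscle markers 0 up and 4 down. The skeletal muscle markers summed to 580 to 837 in undifferentiated p53;USP7 double-knockout libraries, against 602 to 13272 in undifferentiated p53-knockout ones. The part of these 3 marker lists in the laminin and integrin changes was not tested.

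FT671 in wild-type neural cells raised as large a part of the family. Of 29 genes 22 rose and 2 fell, against 33.0% higher and 32.1% lower among all genes, and the median change was 0.98, against -0.01 over all genes. A rise of at least 1 on the log2 scale was reached by 14 of 29 genes and by 14.0% of all genes. ITGA5 had 84.6, 78.6 and 71.0 normalized counts in FT671 libraries, against 2.91, 2.94 and 1.92 in DMSO libraries (log2 4.47 ± 0.25, adjusted p = 6.2e-15). ITGB4 had 548, 495 and 528 in FT671 libraries, against 21.4, 31.3 and 32.7 in DMSO libraries (log2 4.18 ± 0.21, adjusted p = 4.4e-16). ITGA11 had 43.3, 47.8 and 41.4 in FT671 libraries, against 0.971, 1.96 and 5.77 in DMSO libraries (log2 3.73 ± 0.31, adjusted p = 2.2e-11). All 3 were low in every DMSO library and higher in every FT671 library. LAMA3 had 556, 585 and 594 in FT671 libraries, against 118, 111 and 154 in DMSO libraries (log2 2.19 ± 0.25, adjusted p = 1.4e-08), and ITGA3, which with beta1 is a receptor for laminins that hold LAMA3 or LAMA5, had 1878, 1937 and 1850.2 in FT671 libraries, against 466, 511 and 487 in DMSO libraries (log2 1.95 ± 0.10, adjusted p = 1.5e-15). LAMC1, LAMB2 and LAMA5 rose by 1.26 ± 0.08, 1.24 ± 0.09 and 1.20 ± 0.10, and the low chains LAMC3 and LAMB3 by 3.00 ± 0.39 and 2.41 ± 0.34. ITGAE fell (log2 -0.79 ± 0.23, adjusted p = 0.0037). LAMA1, ITGA9, ITGB8 and ITGB2 were not called, at log2 0.16 ± 0.10, 0.18 ± 0.08, -0.01 ± 0.12 and -0.01 ± 0.68. ITGB1 rose by 0.22 ± 0.08, and that call was lost with TMM rescaling (log2 0.15, adjusted p = 0.113). The mesenchymal markers summed to 35428 to 36289 in FT671 libraries, against 16399 to 17179 in DMSO libraries, and the adrenergic neuroblast markers to 36739 to 39609 in FT671 libraries, against 92848 to 96935 in DMSO libraries. The 4 measured of 8 Schwann and glial markers summed to 313 to 325 in FT671 libraries, against 48.5 to 71.4 in DMSO libraries. Of the 10 mesenchymal markers 7 rose and 1 fell, of the 10 adrenergic neuroblast markers 2 rose and 8 fell, and of the 4 Schwann and glial markers 2 rose and 0 fell. Their part in the changes was not tested.

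The comparison of FT671 with vehicle and that of USP7 loss in neural cells use no library in common. Of the genes, 19 rose in both, which is 90.5% of the 21 that rose with USP7 loss and 86.4% of the 22 that rose with FT671. Over all genes 3374 rose in both, 71.5% of 4716 and 66.7% of 5060. The base rates differ, since 22 of 29 genes rose with FT671, against 33.0% of all genes. With USP7 loss 21 of 29 rose, against 30.7% of all genes. A large overlap within the family follows in part from those counts and is no separate support. The sizes differed between genes: LAMA4 changed by 0.48 ± 0.14 with FT671 and by 2.54 ± 0.14 with USP7 loss, LAMA1 by 0.16 ± 0.10 and 2.20 ± 0.10, ITGA4 by 1.63 ± 0.11 and 4.57 ± 0.11, LAMA3 by 2.19 ± 0.25 and -0.22 ± 0.25, and ITGB4 by 4.18 ± 0.21 and 4.74 ± 0.21. ITGA7 went opposite ways, up with FT671 (704, 689.6 and 692 in FT671 libraries, against 369.9, 340.5 and 345 in DMSO libraries) and down with USP7 loss. The difference between the effect of the inhibitor and that of the knockout was not tested, and the p53 state of the cells differed between them. DMSO against no treatment called 7 of 29 genes in wild-type neural cells, 2 up and 5 down (4.33% of all genes higher and 4.38% lower), with LAMA4 at -0.74 ± 0.14 and ITGA6 at -0.60 ± 0.08. Per kb, LAMA4 stood at 105 with DMSO, 147 with FT671 and 176 untreated, so its level with FT671 stayed below that of untreated cells. ITGA6 stood at 80.2 with DMSO, 203 with FT671 and 122 untreated. With DMSO against no treatment, ITGA11 was the 1 gene that fell by at least 1 on the log2 scale. It was low in both of these groups, at 0.285 per kb with DMSO and 0.629 untreated, and stood at 4.33 with FT671. Its rise with FT671 was thus measured from a reference below untreated cells. Both edgeR with TMM factors and DESeq2 called 1 up and 5 down for DMSO against no treatment.

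**Figure D3:**
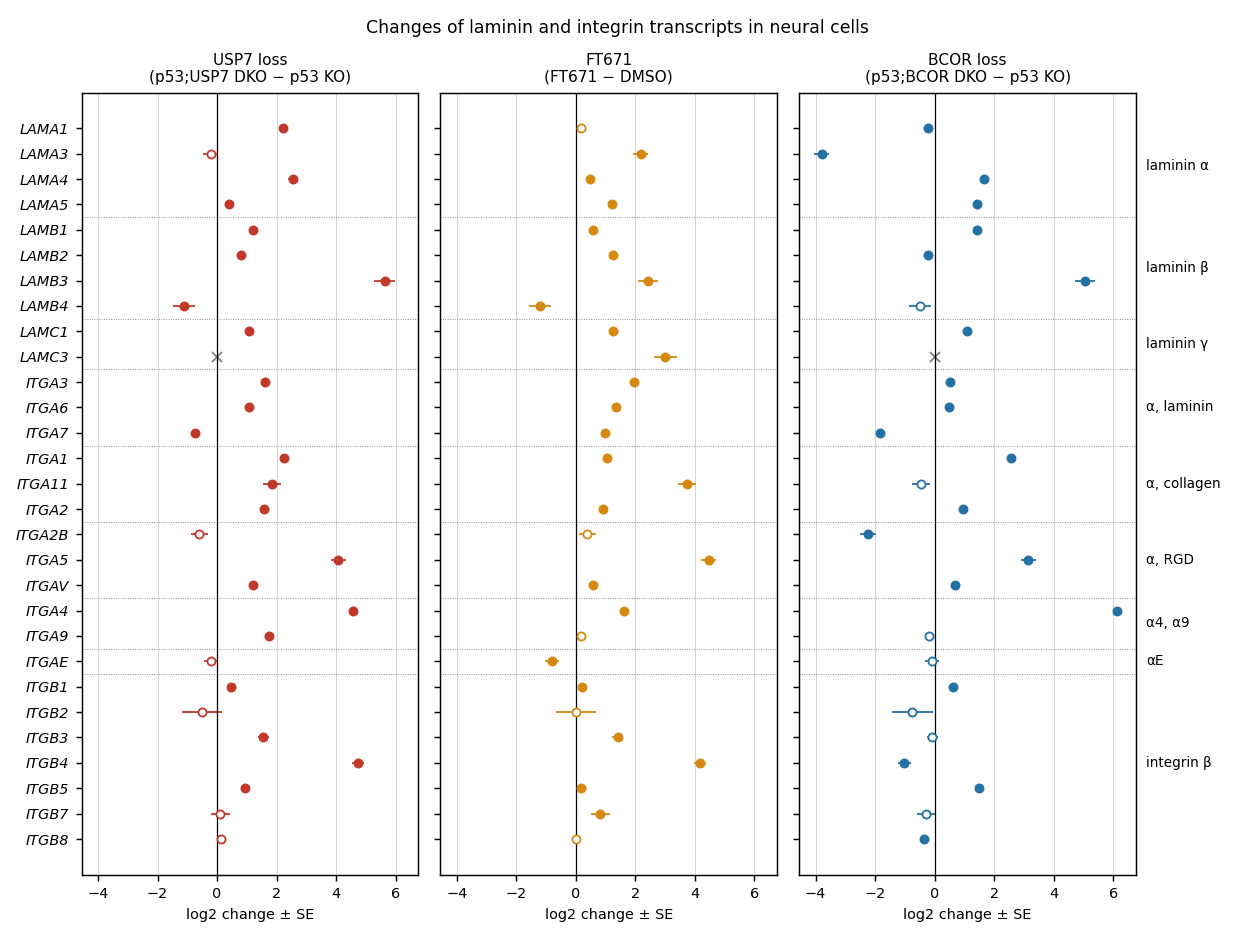
Log2 change ± SE (x axis) of the 29 genes (y axis, by role) with USP7 loss, FT671 and BCOR loss in neural cells. Filled points were called at an adjusted p below 0.05, open points were not, and a cross marks a gene with at most 3 reads in a group; points of the first 2 panels lie mostly right of 0, with 21 and 22 genes raised, and LAMA3, ITGA2B, ITGA7 and ITGB4 lie left of it with BCOR loss.

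Loss of BCOR in neural cells moved the family both ways. Of 29 genes 14 rose and 7 fell (29.4% higher and 32.9% lower among all genes), and the median was -0.09, against -0.01 over all genes. A rise of at least 1 on the log2 scale was reached by 9 of the 29 genes and by 8.15% of all genes. A fall of that size was reached by 4 of the 29 and by 13.9% of all genes. ITGA4 had 5678, 5218 and 5307 normalized counts in p53;BCOR double-knockout neural libraries, against 79.6, 80.8 and 67.3 in p53-knockout neural ones (log2 6.14 ± 0.11, adjusted p = 6.5e-26), and 45.2% of all alpha subunit transcripts per kb, against 2.05% in p53-knockout neural cells. LAMB3 had 241, 279 and 293 in p53;BCOR double-knockout neural libraries, against 11.8, 7.79 and 3.90 in p53-knockout neural ones (log2 5.05 ± 0.34, adjusted p = 2.6e-13). ITGA5 had 54.9, 53.6 and 61.2 in p53;BCOR double-knockout neural libraries, against 4.92, 4.87 and 6.83 in p53-knockout neural ones (log2 3.15 ± 0.25, adjusted p = 1.1e-11). No double-knockout library was as low as any p53-knockout one for these 3 genes. ITGA1 rose by 2.56 ± 0.07, LAMA4 by 1.66 ± 0.14, LAMA5 by 1.41 ± 0.10 and LAMB1 by 1.41 ± 0.08. LAMA3 fell, with 9.50, 5.36 and 6.44 in p53;BCOR double-knockout neural libraries, against 97.3, 123 and 107 in p53-knockout neural ones (log2 -3.79 ± 0.25, adjusted p = 1.6e-13). ITGA7 had 180.5, 199.6 and 199.7 in p53;BCOR double-knockout neural libraries, against 716, 680.3 and 681 in p53-knockout neural ones (log2 -1.84 ± 0.10, adjusted p = 1.1e-15). ITGA2B, the platelet fibrinogen receptor subunit, fell between low levels, with 4.22, 5.36 and 8.59 in p53;BCOR double-knockout neural libraries, against 24.6, 30.2 and 41.0 in p53-knockout neural ones (log2 -2.24 ± 0.28, adjusted p = 5.7e-08). ITGB4 fell as well, with 10.6, 8.58 and 10.7 in p53;BCOR double-knockout neural libraries, against 27.5, 17.5 and 19.5 in p53-knockout neural ones (log2 -1.02 ± 0.21, adjusted p = 1.2e-04). The mesenchymal markers summed to 57616 to 59128 in p53;BCOR double-knockout neural libraries, against 15175 to 15852 in p53-knockout neural ones, and the adrenergic neuroblast markers to 272314 to 315970.0 in p53;BCOR double-knockout neural libraries, mostly CHGA, against 115402 to 122885 in p53-knockout neural ones. The sum went against most of its genes, since 2 rose and 8 fell of 10. Of the 10 mesenchymal markers 9 rose and 1 fell. Their part in these changes was not tested.

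In undifferentiated cells BCOR loss raised 16 of 29 genes and lowered 9 (35.6% of all genes higher and 33.7% lower), or 17 and 8 without the 2 outlying undifferentiated libraries. The laminin-binding subunits ITGA3 and ITGA6 rose (log2 1.97 ± 0.10 and 2.41 ± 0.08), as did LAMB3 (2.43 ± 0.34), ITGA4 (2.30 ± 0.11) and LAMB2 (1.52 ± 0.09). ITGA7, the third laminin-binding subunit, fell, at 79.9 normalized counts per kb in undifferentiated p53;BCOR double-knockout cells, against 117 in undifferentiated p53-knockout ones. LAMA4 fell, with 7.31, 5.21 and 8.36 normalized counts in undifferentiated p53;BCOR double-knockout libraries, against 57.7, 61.5 and 41.4 in undifferentiated p53-knockout ones (log2 -2.78 ± 0.14, adjusted p = 6.7e-16). LAMA1 fell by a log2 change of -1.20 ± 0.10, where USP7 loss raised it by 2.26 ± 0.10; both are set against the same p53-knockout libraries. The 4 measured Schwann and glial markers summed to 243 to 258 in undifferentiated p53;BCOR double-knockout libraries, against 45.4 to 80.7 in undifferentiated p53-knockout ones, and 3 rose and 0 fell. Of the 10 mesenchymal markers 9 rose and 1 fell, of the 10 adrenergic neuroblast markers 2 rose and 7 fell, and of the 8 measured skeletal muscle markers, high in the outlying p53-knockout library, 0 rose and 5 fell. Their part in these changes was not tested.

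The double knockouts were also compared with each other. In neural cells 17 of 29 genes were higher and 5 lower in p53;USP7 than in p53;BCOR double knockouts, against 32.3% higher and 28.6% lower among all genes, with a median of 0.62, against 0.01 over all genes. ITGB4 had 564, 614 and 592 normalized counts in p53;USP7 double-knockout neural libraries, against 10.6, 8.58 and 10.7 in p53;BCOR double-knockout ones (log2 5.76 ± 0.21, adjusted p = 5.1e-19). LAMA3 had 100.4, 92.7 and 86.7 in p53;USP7 double-knockout neural libraries, against 9.50, 5.36 and 6.44 in p53;BCOR double-knockout ones (log2 3.57 ± 0.25, adjusted p = 8.1e-13). LAMA1 had 2300.2, 2267 and 2311 in p53;USP7 double-knockout neural libraries, against 439, 393 and 435 in p53;BCOR double-knockout ones (log2 2.44 ± 0.10, adjusted p = 1.0e-17). These 3 genes were higher in every p53;USP7 double-knockout library. ITGA9 was higher too (log2 1.92 ± 0.08), while ITGA4 (-1.57 ± 0.11), LAMA5 (-0.99 ± 0.10) and ITGB5 (-0.55 ± 0.08) were lower. LAMB3 and LAMC1 did not pass the test, at log2 0.58 ± 0.34 and -0.03 ± 0.08. LAMC3 had 13.5, 21.5 and 21.9 in p53;USP7 double-knockout neural libraries and no read in the p53;BCOR double-knockout ones. In undifferentiated cells 11 of 29 were higher and 13 lower (32.2% of all genes higher and 33.0% lower), or 12 and 12 without the 2 outlying undifferentiated libraries, and LAMC3 (log2 3.66 ± 0.39, adjusted p = 4.8e-09) and LAMA1 (log2 3.46 ± 0.10, adjusted p = 9.4e-21) were highest in the p53;USP7 double knockout.

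With heterozygosity for USP7, ITGA9 and ITGA5 rose and LAMA4 fell in neural cells. There 11 of 25 genes rose and 3 fell, against 9.56% higher and 11.7% lower among all genes, with a median of 0.20, against about 0 over all genes, and in undifferentiated cells 6 rose and 6 fell (11.4% of all genes higher and 14.1% lower), or 3 and 4 without 1 of the 2 wild-type undifferentiated libraries. ITGA9 had 766 and 820.3 normalized counts in heterozygous neural libraries, against 364 and 388 in wild-type neural ones (log2 1.07 ± 0.07, adjusted p = 5.6e-11). ITGA5 had 13.0 and 6.77 in heterozygous neural libraries, against 0.974 and 2.93 in wild-type neural ones (log2 1.90 ± 0.37, adjusted p = 5.3e-04), all of them few reads. ITGA6 had 793 and 844 in heterozygous neural libraries, against 497 and 552 in wild-type neural ones (log2 0.64 ± 0.09, adjusted p = 5.2e-06). The groups were apart for each gene, with 2 libraries on either side. ITGB5 (0.57 ± 0.06), LAMB1 (0.43 ± 0.04) and LAMA5 (0.40 ± 0.05) rose, and ITGA1 (-0.39 ± 0.05) and LAMA4 (-0.52 ± 0.09) fell on the log2 scale. ITGA4 and ITGB4 were not called, at -0.16 ± 0.15 and 0.74 ± 0.31. In undifferentiated heterozygous cells LAMA4 had 45.5 and 49.2 normalized counts, against 123 and 121 in undifferentiated wild-type ones (log2 -1.34 ± 0.09, adjusted p = 1.6e-10), and LAMA1 had 1025 and 1078 in heterozygous libraries, against 1843 and 1787 in wild-type ones (log2 -0.79 ± 0.06, adjusted p = 1.1e-09). The 4 measured Schwann and glial markers summed to 134 to 1139.6 in the heterozygous neural libraries, 1 library far above the other, against 183 to 192 in wild-type neural ones, and their part in these changes was not tested.

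Differentiation within the heterozygote experiment called 24 of 25 genes in either genotype, 12 up and 12 down in heterozygous cells (38.2% of all genes higher and 38.2% lower) and 11 up and 13 down in wild-type cells (39.7% and 39.6%). All 19 genes called for wild-type differentiation in both experiments, which share no library, went the same way, as did 95.5% of the 7797 genes called in both over all genes. The interaction with genotype was positive for 8 of 25 genes and negative for 2 (8.76% of all genes higher and 7.44% lower). ITGA9 rose with differentiation in heterozygous cells (log2 0.98 ± 0.07) and fell in wild-type cells (-0.53 ± 0.07), a difference of 1.51 ± 0.10.

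**Figure D4:**
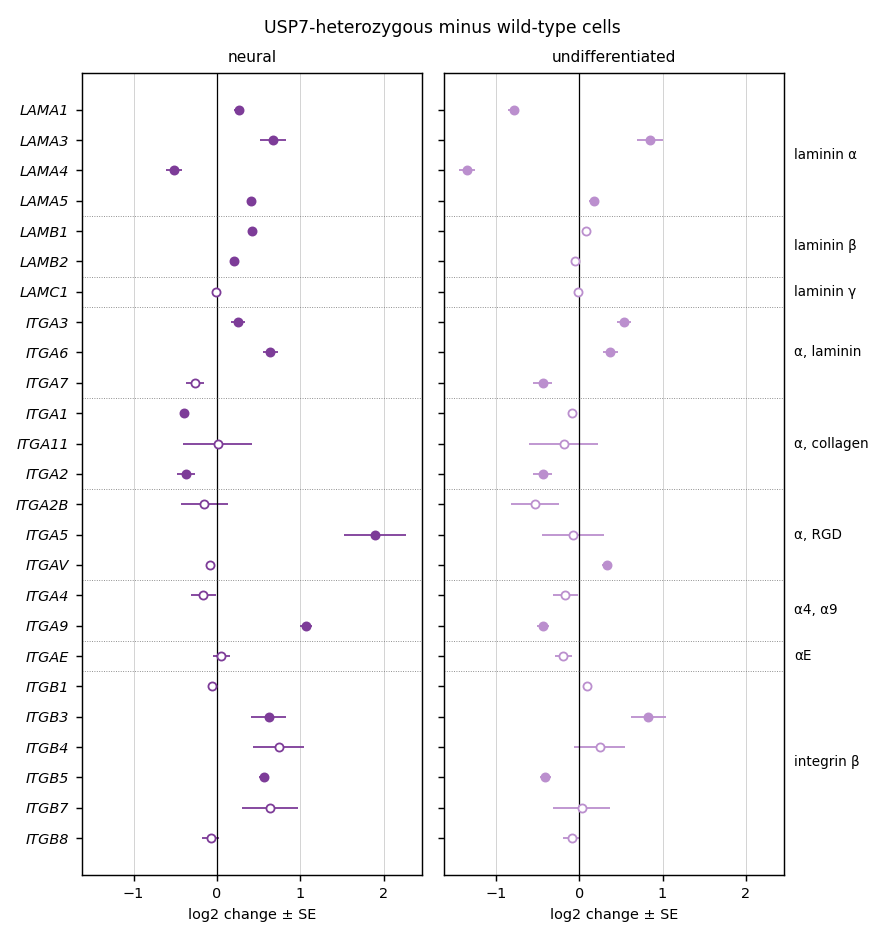
Log2 change ± SE (USP7-heterozygous minus wild type, x axis) of the 25 genes (y axis, by role) in neural and undifferentiated cells, 2 libraries per group. Filled points were called at an adjusted p below 0.05 and open points were not; ITGA5 and ITGA9 lie farthest right in neural cells, and LAMA4 lies farthest left in both states.

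Genes that work with laminins and integrins were counted from lists. Of 13 measured basement membrane partners, 10 rose and 3 fell with USP7 loss in neural cells (median 1.35), 11 rose and 1 fell with FT671 (median 2.12), 7 rose and 2 fell with BCOR loss in neural cells (median 0.37), and 2 rose and 8 fell in wild-type differentiation (median -1.56). The medians over all genes lay between -0.01 and 0.01 in these comparisons. Of all genes 30.7% were called higher and 33.0% lower with USP7 loss in neural cells, 33.0% and 32.1% with FT671, 29.4% and 32.9% with BCOR loss in neural cells, and 32.4% and 33.4% in wild-type differentiation, and the counts of this and the next lists are to be read against these shares. NID1, the nidogen that links laminin to collagen IV, averaged 19461 ± 265 normalized counts in p53;USP7 double-knockout neural cells, against 4234 ± 347 in p53-knockout neural cells, and 27006 ± 161 with FT671, against 2573 ± 66.3 with DMSO. NID2 averaged 2983 ± 102 in p53;USP7 double-knockout neural cells, against 302 ± 3.61 in p53-knockout neural cells. SPARC, a collagen-binding matricellular protein, averaged 18943 ± 322 in p53;USP7 double-knockout neural cells, against 1517 ± 61.7 in p53-knockout neural cells. All of these rose. COL4A1, a chain of the main basement membrane collagen, averaged 3359 ± 118 with FT671, against 437 ± 26.8 with DMSO, and 91.7 ± 9.82 in heterozygous neural cells, against 375 ± 9.29 in wild-type neural cells (log2 2.94 and -2.02), so it rose with the inhibitor and fell in the heterozygote. FBLN2, a laminin-binding fibulin, fell to 5.35 ± 3.74 in p53;BCOR double-knockout neural cells, against 137 ± 16.9 in p53-knockout neural cells.

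Of 15 laminin receptors that are not integrins, 10 rose and 3 fell with USP7 loss in neural cells (median 0.87), 10 rose and 0 fell with FT671 (median 1.00) and 2 rose and 10 fell in wild-type differentiation (median -0.74). SDC4, a focal adhesion syndecan, averaged 2463 ± 78.5 in p53;USP7 double-knockout neural cells, against 475 ± 2.62 in p53-knockout neural cells, and 2168 ± 98.5 with FT671, against 375 ± 5.74 with DMSO. LGALS3, the galactose-binding lectin galectin-3, changed by 2.88 with USP7 loss in neural cells and by 3.41 with FT671 on the log2 scale. Of 22 integrin ligands other than laminins, 14 rose and 3 fell with USP7 loss in neural cells (median 1.29), 14 rose and 4 fell with FT671 (median 0.87), and 14 rose and 5 fell with BCOR loss in neural cells (median 2.26). ICAM1, the ligand of beta2 integrins, averaged 6154 ± 379 in p53;USP7 double-knockout neural cells, against 90.9 ± 8.49 in p53-knockout neural cells, and 4787 ± 114 with FT671, against 14.2 ± 3.00 with DMSO. Its receptor subunit ITGB2 was low, at 6.76, 11.7 and 5.98 in p53;USP7 double-knockout neural libraries and 10.8, 13.6 and 10.7 in p53-knockout neural ones. VCAM1, a ligand of alpha4 and alpha9 integrins, averaged 778 ± 54.0 with FT671, against 195 ± 6.11 with DMSO. L1CAM, a neuronal adhesion molecule, averaged 431 ± 38.4 in p53;BCOR double-knockout neural cells, against 14569.9 ± 354 in p53-knockout neural cells.

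Of 32 integrin adaptors and focal adhesion genes, 15 rose and 8 fell with USP7 loss in neural cells (median 0.26), 16 rose and 9 fell with FT671 (median 0.18), and 5 rose and 20 fell in wild-type differentiation (median -0.74). The adaptors that fell with USP7 loss, 8 of 32 against 33.0% of all genes, and with FT671, 9 of 32 against 32.1%, were no larger a share than among all genes. TNS3, a tensin, averaged 2984 ± 91.0 in p53;USP7 double-knockout neural cells, against 24697 ± 752 in p53-knockout neural cells (log2 -3.05). Of the hemidesmosome genes that anchor alpha6 beta4, 3 of 6 were measured. With USP7 loss in neural cells 1 of the 3 rose, the tetraspanin CD151 (log2 0.40), and none fell, while with FT671 2 rose and 1 fell. KRT5, KRT14 and COL17A1 were not analysed here.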

How the data were processed

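Per the submitters' processing notes, STAR, HTSeq and DESeq2 were used, with the hg19 build; their versions and settings are not given in the sources used here. The deposited value of a gene in a library is a normalized signal: with the added 1 taken off, it is the read count divided by the size factor of the library (0.9217 to 1.0449), and reads recovered in this way were whole within 0.01 for 100.0% of the values. Library totals were 16149022 to 17946790 reads in genes, and no interval is given for single counts. Another 6 columns of values, whose names match no labelled sample, were not used.

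Genes with a mean of at least 5 normalized counts were tested, 15351 in the main and 14820 in the heterozygote experiment, with limma 3.58.1 in R 4.3.3 (trend and robust) on log2(normalized count + 1), 1 model per experiment over all its groups, and Benjamini-Hochberg adjustment over all genes tested. No fold change is given where a group held at most 3 reads. The plan named limma for normalized values, with edgeR in its place only if raw counts were deposited. The deposited values are normalized, so limma was kept as the main test. On the recovered reads, edgeR 4.0.16 and DESeq2 1.42.0 were run as alternatives. The other alternatives were an added value of 0.5 or 5, no filter, a replicate block, a fit of only the groups compared, TMM rescaling and leaving out each library. Leaving out the third library of both undifferentiated p53-knockout and p53;USP7 double-knockout cells was chosen after the data had been seen. The model was tested on simulated data with known changes in well-covered genes, a single spread for all genes and no outlying library. Changes of low genes and outlying libraries, which these data hold, were not covered by it.

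Same-numbered libraries deviated together, with a correlation over 0.1 for every pair, only for USP7 loss in undifferentiated cells (0.15, 0.11 and 0.23), where the replicate block called 20 genes in place of 19. Laminin and integrin genes and all lists were chosen with earlier results of these data known. Values of each library were given mainly for laminin and integrin genes called with groups that did not overlap. Statements that groups did not overlap restate that choice and are no separate support. Of other lists, up to 4 called genes per comparison with a mean of at least 100 normalized counts and the largest change could be named. Levels per kb use the longest coding transcript of GENCODE release 29, and promoters are from RefSeq on GRCh38.p14, matched by symbol. Some genes are not reported here.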

Additional observations from a re-analysis of the deposited data

Results flagged for a closer look

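The results below are tests of whether a genotype changed the response to differentiation, each a log2 difference of differences ± SE with an adjusted p below 0.05 in limma and a size of at least 1. They do not share one direction. For USP7 loss against p53 knockout they were LAMB3 4.45 ± 0.48, ITGA5 4.27 ± 0.36, LAMA4 3.84 ± 0.20, ITGB4 3.46 ± 0.30, ITGA4 3.12 ± 0.16, ITGA9 1.96 ± 0.12, ITGA11 1.95 ± 0.43, ITGA1 1.15 ± 0.10, ITGB3 1.13 ± 0.26 and ITGB5 1.04 ± 0.12, all positive. For BCOR loss against p53 knockout 5 were positive, LAMA4 4.44 ± 0.20, ITGA4 3.84 ± 0.16, ITGA5 2.73 ± 0.36, LAMB3 2.62 ± 0.48 and LAMB4 2.15 ± 0.53, and 7 were negative, LAMA3 -2.71 ± 0.35, ITGA6 -1.95 ± 0.11, LAMB2 -1.76 ± 0.13, ITGA2B -1.59 ± 0.39, ITGA3 -1.47 ± 0.15, ITGA7 -1.29 ± 0.14 and ITGA11 -1.22 ± 0.43. That of ITGA11 did not pass with DESeq2 (log2 -1.36, adjusted p = 0.0527) or without the second p53-knockout neural library (log2 -1.02, adjusted p = 0.0541). The double-knockout tests use the same p53-knockout libraries.

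For p53 loss against wild type they were LAMB2 1.12 ± 0.13, ITGA6 -1.28 ± 0.11, ITGA9 -1.13 ± 0.12 and ITGB3 -1.08 ± 0.26. For USP7 heterozygosity against wild type they were ITGA5 1.98 ± 0.53, ITGA9 1.51 ± 0.10 and LAMA1 1.05 ± 0.09. ITGA5 had few reads in neural cells of either genotype, and its test did not pass with DESeq2 (log2 2.41, adjusted p = 0.0782) or without the first heterozygous neural library (log2 1.56, adjusted p = 0.0883). ITGA9 was positive for USP7 loss, for USP7 heterozygosity, and negative for p53 loss.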

How the results depend on the processing

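Every count of called laminin and integrin genes was recomputed under 346 alternatives over 22 comparisons, and 344 stayed within 1.5 times the count as reported. The exceptions were DMSO against no treatment, where a fit of only the groups compared called 11 genes in place of 7, and USP7 heterozygosity in undifferentiated cells, where 7 genes in place of 12 were called without the second wild-type undifferentiated library. The cause was not tested. Leaving out 1 library at a time gave 22 to 25 genes for USP7 loss in neural cells, 17 to 22 in undifferentiated cells, 22 to 24 for FT671, 19 to 21 for BCOR loss in neural cells, 6 to 8 for DMSO against no treatment, 11 to 14 for heterozygosity in neural cells and 7 to 12 in undifferentiated cells. Of 366 single-gene results 42 lost their call under at least 1 of the alternatives run, 136 times in 5570, and 0 reversed. On the recovered reads edgeR's quasi-likelihood test with TMM factors called 24 of the 29 genes for USP7 loss in neural cells (4446 genes up and 5547 down in all) and 22 for FT671 (4676 up and 5678 down in all), and DESeq2 called 22 and 23. With the replicate number as a replicate block, counts moved by at most 1 gene, to 22 for BCOR loss in neural cells, 20 for USP7 loss in undifferentiated cells and 17 for its interaction with differentiation. No paired analysis was possible for the heterozygote experiment because its columns carry no replicate numbers that match the labels. Low genes such as LAMC3, LAMB4, ITGA11 and wild-type neural LAMB3 and ITGA5 rest on a few reads per library in their low groups, which limits the precision of their changes.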
